A study of Homo sapiens with 12 samples.

Results

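The genes described here are 48 targets of the tumour suppressor p53, inhibitors of the cell cycle and members of the apoptosis machinery, taken by symbol from the 63241 genes counted in each library. Each of the 48 symbols matched 1 Ensembl gene identifier. They were grouped by role into feedback on p53, inhibitors of cyclin-dependent kinases, growth arrest and damage response, stress and metabolism, death receptors, BCL2 effectors with BH3 genes, BCL2 family survival genes, and the apoptosome with its inhibitor. Poly-A RNA was sequenced in 12 libraries. The cells are labelled MDA-PCa-2b, a line established from human prostate adenocarcinoma that responds to androgen. The growth protocol also names a sister line, MDA-PCa-2a, and the labels leave that conflict unsettled. Each of 4 groups has 3 libraries. KDR is labelled as a rescue made on knock down 2, KD2 and KD1 are labelled as knock downs of DHODH, and NT is the group they are set against. DHODH is the mitochondrial enzyme of pyrimidine synthesis. What NT stands for, the kind of construct, the number of clones and the way the rescue was made are not stated in the labels. No drug or time course is named, and all groups share the same medium with serum. Nor do the labels say whether libraries of a group are separate cultures, so the p-values rest on a spread that may be purely technical.

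p53 is a transcription factor that is kept low by MDM2, itself a product of a p53 target gene, and that accumulates when DNA is damaged or nucleotide supply and ribosome assembly are disturbed. Its targets include CDKN1A, which holds cells in G1 by binding cyclin-dependent kinases, and genes of cell death such as BBC3, PMAIP1, BAX and FAS. Death through mitochondria is set by the BCL2 family, in which BH3-only proteins oppose the survival proteins BCL2, BCL2L1 and MCL1 and so free BAX and BAK1 to open the outer membrane.

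A window of 300 bases around the RefSeq start, from 250 before to 50 after it, was searched on both strands for the p53 response element, which is a pair of decamers, here without a spacer. Each decamer has 10 bases, and up to 3 mismatches were allowed in the 20 bases while the conserved C and G of both decamers were kept. RefSeq windows of GRCh38.p14 were at hand for 39 of the 48 genes. Such a pair was found in 10 of them (25.6%) and in 373 of all 27305 windows (1.37%). Many of these genes were put in the set because they are known p53 targets, so the difference in shares is a description of the set. The sequences of MDM2, FAS, AEN, PMAIP1, SESN1 and GDF15 are shown because these genes were called in different directions in KD2 against NT, and that of DDB2 because it is the closest match, although DDB2 was called in no comparison with all libraries. They are given with the pair of decamers in capitals and 5 flanking bases where the window allowed, 5′ to 3′ along the gene.
MDM2: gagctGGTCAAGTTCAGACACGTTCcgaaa
FAS: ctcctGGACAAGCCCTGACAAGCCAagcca
AEN: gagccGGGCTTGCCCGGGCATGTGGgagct
DDB2: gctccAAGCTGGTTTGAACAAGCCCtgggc
PMAIP1: gtcggGAGCGTGTCCGGGCAGGTCGcgctc
SESN1: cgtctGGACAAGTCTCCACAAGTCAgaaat
GDF15: tgcacAGCCATGCCCGGGCAAGAACtc
They lie at chr12:68808918-68808947 on the plus strand for MDM2, chr10:88991304-88991333 on the plus strand for FAS, chr15:88621301-88621330 on the plus strand for AEN and chr11:47214964-47214993 on the plus strand for DDB2. The PMAIP1 stretch is at chr18:59899806-59899835 on the plus strand, that of SESN1 at chr6:109009013-109009042 on the minus strand and that of GDF15 at chr19:18386181-18386207 on the plus strand. Against the consensus the DDB2 pair has 1 mismatch, the MDM2, FAS and AEN pairs have 2 each, and the PMAIP1, SESN1 and GDF15 pairs have 3 each. CDKN1B, FDXR and RPS27L hold the other 3 pairs. A match describes these letters, not binding.

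Libraries held 23786288 to 38240369 counts. NT replicate 2 stood apart: the biological coefficient of variation was 5.53% in KDR, 7.17% in KD2, 6.62% in KD1 and 15.7% in NT, and 8.56% in NT without that library. DHODH RNA averaged 18.6 ± 0.918 counts per 1000000 counts (CPM) in KDR, 13.1 ± 1.73 in KD2, 10.3 ± 0.674 in KD1 and 10.5 ± 2.51 in NT (SD, n = 3 each). It was therefore not called lower in the libraries labelled KD2 (log2 fold change 0.31, edgeR adjusted p = 0.097) or KD1 (-0.03, adjusted p = 0.97) than in NT, and these names are used below only as labels. It was higher in KDR than in KD2 (0.51, adjusted p = 0.0064) and NT (0.82, adjusted p = 1.0e-04). The 12 markers of prostate luminal cells summed to 21564 to 21893 CPM in KDR, 14028 to 14502 in KD2, 21164 to 21491 in KD1 and 20968 to 23899.9 in NT. Of the 12, 10 were called lower in KD2 than in NT, FOXA1 was called higher and 1 was not called. Of all genes tested, 18.2% were called lower and 17.8% higher in KD2 against NT. All 5 immune markers stayed under 1 CPM on average, with 3 of them at 0 in every library, and all 4 endothelial markers were also under 1 CPM, with 2 at 0. Fibroblast markers summed to 1.84 to 5.12 CPM and basal markers to 5.22 to 7.75 CPM. Whether the luminal shift has a part in the results below was not tested, and in bulk RNA fewer cells of a type and less RNA per cell cannot be told apart.

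In KD2, CDKN1A, BTG2, FAS, TNFRSF10A and BBC3 were among the genes called higher than in NT, and CDKN2A, GADD45G, PMAIP1 and BIK among those called lower. Of these calls, that of BBC3 was lost when any 1 of 7 libraries was left out. Both directions occurred among the CDK inhibitors, the growth arrest and damage response genes, the BCL2 effectors with BH3 genes and the survival genes. With all libraries, feedback genes and death receptors had calls in the higher direction only, and stress and metabolism genes in the lower direction only. The apoptosome genes had none. Without NT replicate 2, the feedback gene MDM4 was called lower (-0.19, edgeR adjusted p = 0.021). The stress gene FDXR was then called higher (0.23, adjusted p = 0.013), and XIAP of the apoptosome genes lower (-0.13, adjusted p = 0.024). Of the 48 genes, 47 passed the filter on low counts and were tested. The exception was SPATA18, a mediator of mitochondrial quality control, with 0 counts in 11 libraries and 6 counts in NT replicate 3. Between KD2 and NT 26 of the 47 differed at an adjusted p under 0.05, 15 higher and 11 lower (55.3%), beside 35.9% of the 19373 genes tested. By direction these were 31.9% higher and 23.4% lower, beside 17.8% and 18.2% of all genes. Between KDR and KD2 24 differed, 6 higher and 18 lower (51.1%), beside 32.4% of all genes, of which 15.3% were higher and 17.1% lower. Between KDR and NT 19 differed, 4 higher and 15 lower (40.4%), beside 27.5%, of which 13% were higher and 14.5% lower. KD2 and KD1 differed at 23 genes, 15 higher and 8 lower in KD2 (48.9%), beside 35.5%, of which 17.9% were higher and 17.5% lower. The 3 libraries of each group did not overlap for 29 of the 47 genes in KD2 against NT (beside 42.5% of all genes), 30 in KDR against KD2 (beside 49.9%), 21 in KDR against NT (beside 38.2%), 34 in KD2 against KD1 (beside 49.7%) and 4 in KD1 against NT (beside 9.40%).

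Without NT replicate 2, which is part of the shared estimate of the spread, the counts were 32 in KD2 against NT (beside 37.8% of the 20065 genes then tested), 31 in KDR against KD2 (beside 39.3%), 21 in KDR against NT (beside 30.8%) and 30 in KD2 against KD1 (beside 41.0%). The shares of all genes were thus also higher than with all libraries. CASP8, CDKN2D, GADD45B, MDM2, PPM1D, TNFRSF10B and ZMAT3 were then called in KDR against KD2 as well (log2 fold change -0.35 to 0.11, adjusted p 0.017 to 0.048). CDKN1B, CDKN1C, DDB2, MDM4, PHLDA3, RPS27L and SESN1 were then called in KD2 against KD1 (-0.67 to 0.17, adjusted p 8.7e-04 to 0.048). The genes gained against NT are given with their roles below.

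Effects were small. Calls of at least 2-fold numbered 3 in KD2 against NT (CDKN2A, GADD45G and BIK, beside 9.27% of all genes), 0 in KDR against KD2 (beside 8.69%), 2 in KDR against NT (CDKN2A and PLK3, beside 6.45%) and 2 in KD2 against KD1 (CDKN2A and BIK, beside 8.94%). The median absolute log2 fold change of the 47 genes was 0.25 in KD2 against NT, where all genes had 0.31, and 0.29 in KDR against KD2, where all genes had 0.29. These genes were also expressed above the typical gene, with a median of 9.44 CPM per kilobase of exon in NT, where all genes tested had 2.46. Counts also depend on exon length, and whether expression level has a part in the shares called was not tested. Tested against a change of at least 1.2-fold (glmTreat in edgeR), 10 genes (21.3%) passed in KD2 against NT, beside 19.5% of all genes. For KDR against KD2 this count was 11 (23.4%, beside 16.2%), for KDR against NT 12 (25.5%, beside 12.7%), and for KD2 against KD1 10 (21.3%, beside 18.6%). Median log2 fold changes stayed near those of all genes in KD2 against NT (0.04, all genes -0.01) and lay lower in KDR against KD2 (-0.21, all genes 0.02).

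**Figure D1:**
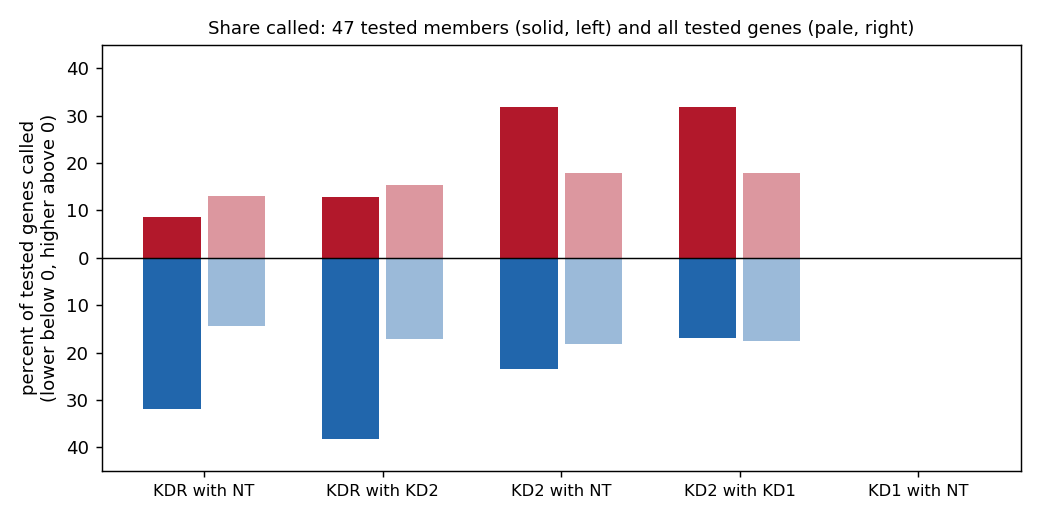
Percent of tested genes called higher (above 0, red) or lower (below 0, blue) at an edgeR adjusted p under 0.05 in 5 comparisons, for the 47 tested p53, cell cycle inhibitor and apoptosis genes (solid, left) and for all 19373 genes tested (pale, right). In KDR against KD2, 38.3% of the 47 genes were lower, beside 17.1% of all genes, and in KDR against NT 31.9% were lower, beside 14.5% of all genes, while KD1 against NT has no bar.

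None of the 47 genes was called between KD1 and NT, and none of all 19373 genes was (0%). DESeq2 and limma-voom called none of the 47 as well. At an unadjusted edgeR p under 0.05 there were 7 of the 47, beside 1185 of all 19373 genes. The 7 were MDM2, CDKN1B, GADD45B, GADD45G, RPS27L, TNFRSF10A and BAK1. All 47 intervals of the log2 fold change lay within a 2-fold change in either direction (beside 70.8% of all genes), and 44 lay within 1.5-fold (beside 58.5%), with CDKN1C, CDKN2A and TIGAR as the exceptions. The difference between the libraries labelled KD2 and KD1 was tested directly in KD2 against KD1.

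**Figure D2:**
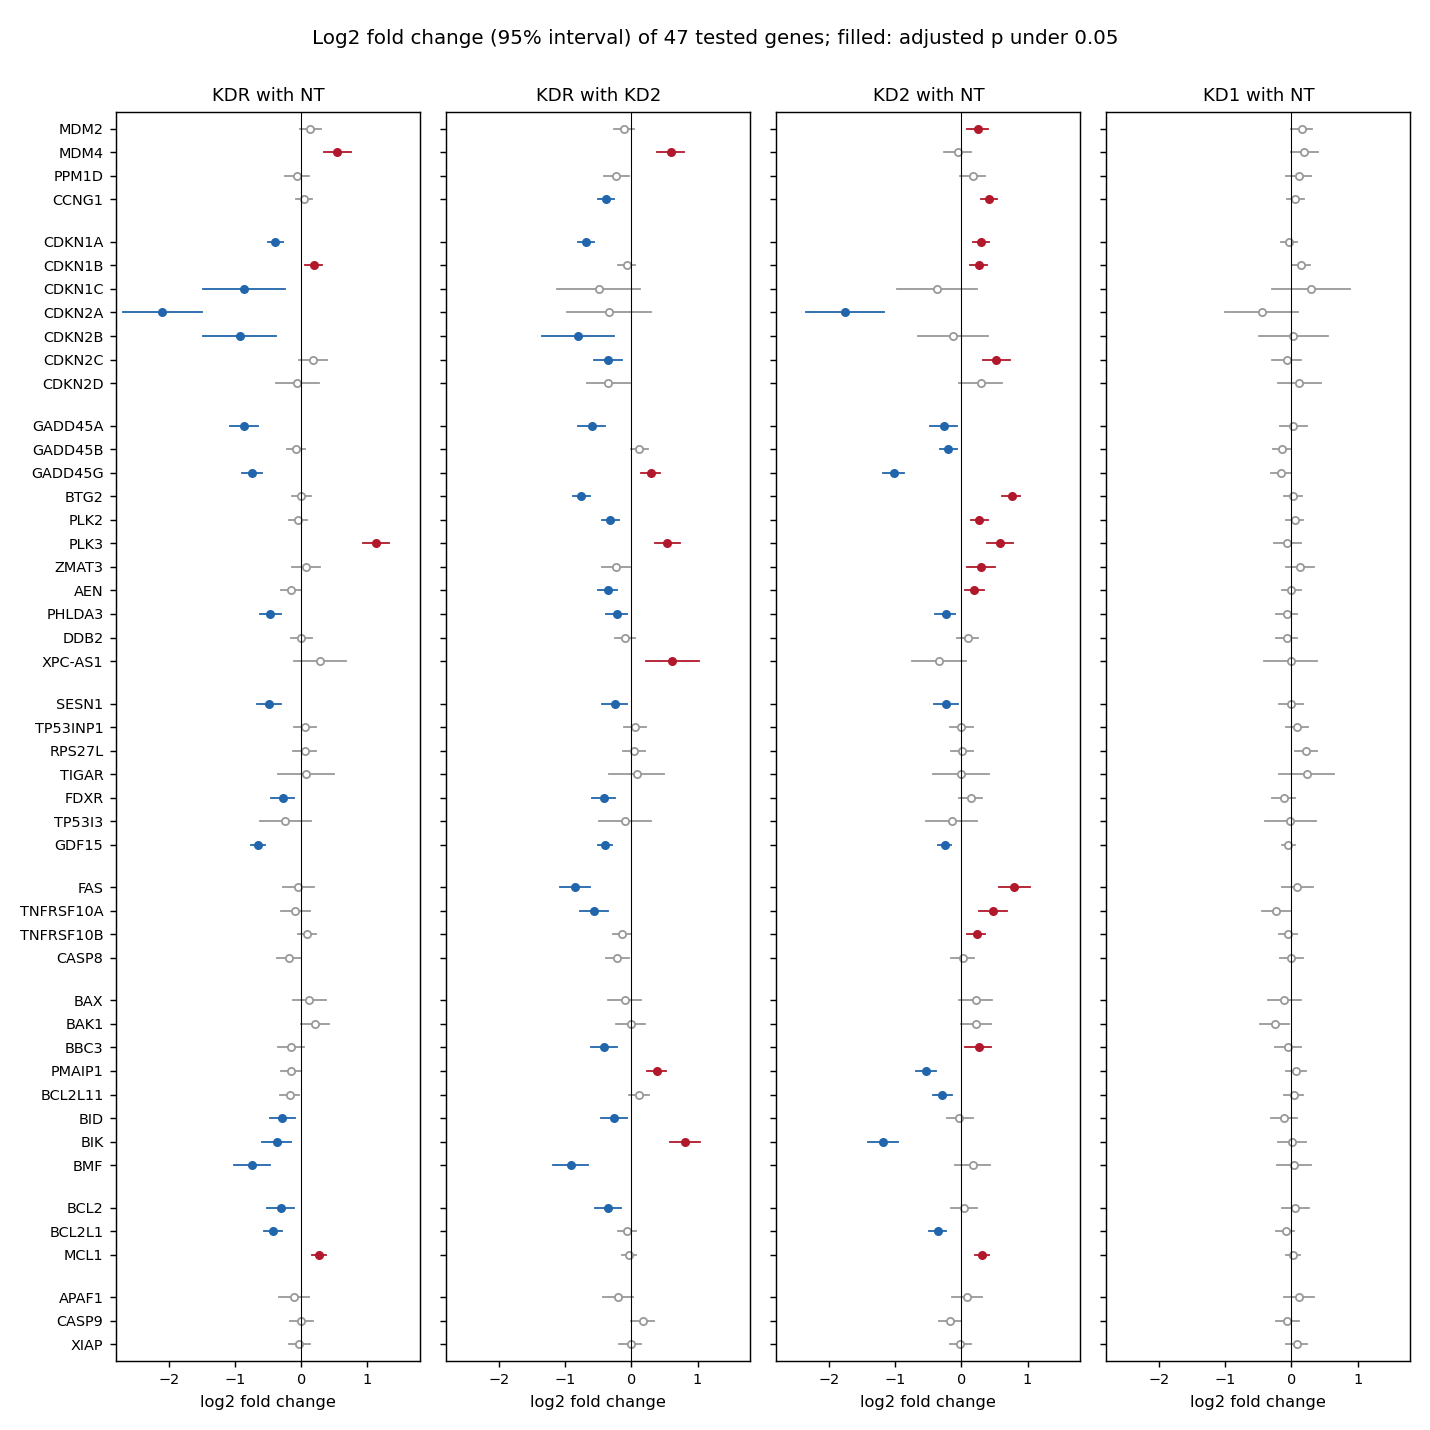
Log2 fold change with its 95% interval for the 47 tested genes, in panels for KDR with NT, KDR with KD2, KD2 with NT and KD1 with NT, each as the first-named group over the second. Blank rows part the roles from feedback on p53 at the top to the apoptosome at the bottom, filled points passed an adjusted p under 0.05 (red higher, blue lower), and CDKN2A lies farthest to the left at -2.10 in KDR with NT.

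Among the 4 feedback genes, CCNG1 and MDM2 rose in KD2 against NT (beside 17.8% of all genes). MDM2, the ubiquitin ligase that degrades p53, was at 139, 137 and 135 CPM in KDR, 146, 156 and 143 in KD2, 135, 141 and 142 in KD1 and 133, 105 and 136 in NT. All KD2 libraries lay above all NT libraries, and NT replicate 2 was the lowest of the 12. Against NT the KD2 log2 fold change was 0.25 ± 0.08 (SE, edgeR adjusted p = 0.012), 0.14 without NT replicate 2 (adjusted p = 0.023) and 0.21 without KD2 replicate 2, where the call was lost (adjusted p = 0.068). About 14.7% of its exon bases are shared with other annotated genes, and counting was not stranded. CCNG1, a cyclin that recruits a phosphatase to MDM2, averaged 231 ± 8.80 CPM in KDR, 299.8 ± 14.3 in KD2, 235 ± 8.60 in KD1 and 225 ± 14.5 in NT. Only the KD2 libraries stood clear of the rest, with 0.41 ± 0.06 against NT (adjusted p = 5.1e-06), -0.38 ± 0.06 for KDR against KD2 (adjusted p = 2.2e-05) and 0.04 ± 0.06 for KDR against NT (adjusted p = 0.69). MDM4, which binds and inhibits p53 beside MDM2, went another way. It averaged 80.6 ± 1.64 CPM in KDR, 53.3 ± 3.51 in KD2, 63.2 ± 5.11 in KD1 and 55.3 ± 9.88 in NT. KDR lay above every other library, at 0.60 ± 0.10 against KD2 (adjusted p = 4.5e-05) and 0.54 ± 0.10 against NT (adjusted p = 1.7e-04). In KD2 against NT MDM4 stood at -0.05 (adjusted p = 0.73), and without NT replicate 2 at -0.19 (adjusted p = 0.021). PPM1D, a phosphatase that switches off p53 signalling, averaged 27.9 to 32.8 CPM in the 4 groups and was called in no comparison with all libraries. In KDR against KD2 it stood at -0.23 (adjusted p = 0.054), and it was called there without NT replicate 1 (-0.23, adjusted p = 0.048), NT replicate 2 (-0.24, adjusted p = 0.017), KD2 replicate 2 (-0.29, adjusted p = 0.039) or KDR replicate 3 (-0.31, adjusted p = 0.029).

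Of the 7 cyclin-dependent kinase inhibitors 3 rose, CDKN2A fell and 3 were not called in KD2 against NT, where 17.8% of all genes rose and 18.2% fell. CDKN1A (p21) was at 133, 141 and 140.3 CPM in KDR, 214, 228 and 224 in KD2, 173, 174 and 183 in KD1 and 179, 195 and 172 in NT. KD2 held the highest values and KDR the lowest, with no overlap of either with any other group. Against NT the KD2 change was 0.29 ± 0.06 (adjusted p = 3.3e-04). KDR was lower than KD2 by a log2 fold change of -0.68 ± 0.06 (adjusted p = 2.8e-09) and lower than NT by -0.40 ± 0.06 (adjusted p = 1.5e-05).

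CDKN2A, whose locus encodes p16INK4A and p14ARF, had 1.67, 1.61 and 0.768 CPM in KDR, 1.22, 1.35 and 2.71 in KD2, 4.25, 4.33 and 4.29 in KD1 and 4.63, 6.58 and 6.40 in NT. These are 21 to 57 counts per library in KDR, 39 to 65 in KD2, 104 to 165 in KD1 and 149 to 199 in NT. KDR and KD2 overlapped with each other and lay below KD1, and KD1 lay below NT. The log2 fold change was -1.76 ± 0.28 in KD2 against NT (adjusted p = 3.2e-05), -2.10 ± 0.29 in KDR against NT (adjusted p = 7.0e-06) and -1.31 ± 0.29 in KD2 against KD1 (adjusted p = 8.9e-04). KDR against KD2 gave -0.34 with a 95% interval of -0.98 to 0.30 (adjusted p = 0.43), and KD1 against NT gave -0.45 ± 0.26 (adjusted p = 0.79). Gene counts do not part the p16INK4A and p14ARF transcripts, and 15.3% of the exon bases are shared with the antisense gene CDKN2B-AS1.

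CDKN2C (p18INK4C), an inhibitor of CDK4 and CDK6, averaged 13.7 ± 0.584 CPM in KDR, 17.5 ± 0.692 in KD2, 11.5 ± 0.489 in KD1 and 12.1 ± 0.368 in NT. It rose in KD2 against NT by 0.53 ± 0.10 (adjusted p = 2.3e-04) and was lower in KDR than in KD2 by -0.35 ± 0.10 (adjusted p = 0.0092). Another gene shares 20.4% of its exon bases on the opposite strand. CDKN1B (p27), which also carries a pair of p53 decamers near its RefSeq start, averaged 128 ± 3.50 CPM in KDR, 135 ± 1.93 in KD2, 125 ± 4.48 in KD1 and 113 ± 9.36 in NT. Against NT it was higher in KD2 (0.26, adjusted p = 0.0019) and in KDR (0.19, adjusted p = 0.028). That KDR call was lost when NT replicate 2 or any of the 3 KDR libraries was left out (0.11 to 0.21, adjusted p 0.052 to 0.12).

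CDKN2B (p15INK4B) had 1.87, 1.71 and 2.38 CPM in KDR, 2.81, 3.61 and 4.01 in KD2, 2.76, 4.24 and 4.55 in KD1 and 4.91, 2.51 and 3.92 in NT. KDR lay below all other libraries. It was lower in KDR than in KD2 (-0.80, adjusted p = 0.022) and NT (-0.93, adjusted p = 0.0097). These calls were lost without KD2 replicate 2, KD2 replicate 3, KDR replicate 1 or KDR replicate 2 for KD2 (-0.77 to -0.70, adjusted p 0.061 to 0.09), and without NT replicate 1 or KDR replicate 2 for NT (-0.84 to -0.70, adjusted p 0.051 to 0.073). CDKN1C (p57), an imprinted inhibitor, averaged 1.32 ± 0.326 CPM in KDR, 1.87 ± 0.356 in KD2, 2.98 ± 0.956 in KD1 and 2.42 ± 0.585 in NT. It was called only in KDR against NT (-0.86, adjusted p = 0.033), and not without NT replicate 1, NT replicate 3, KDR replicate 2 or KDR replicate 3 (-0.82 to -0.71, adjusted p 0.076 to 0.12). CDKN2D (p19INK4D) averaged 8.14 to 10.3 CPM and was called in no comparison with all libraries, but without NT replicate 2 it was higher in KD2 than in NT (0.48, adjusted p = 0.015), and without KDR replicate 3 it was lower in KDR than in KD2 (-0.51, adjusted p = 0.03).

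**Figure D3:**
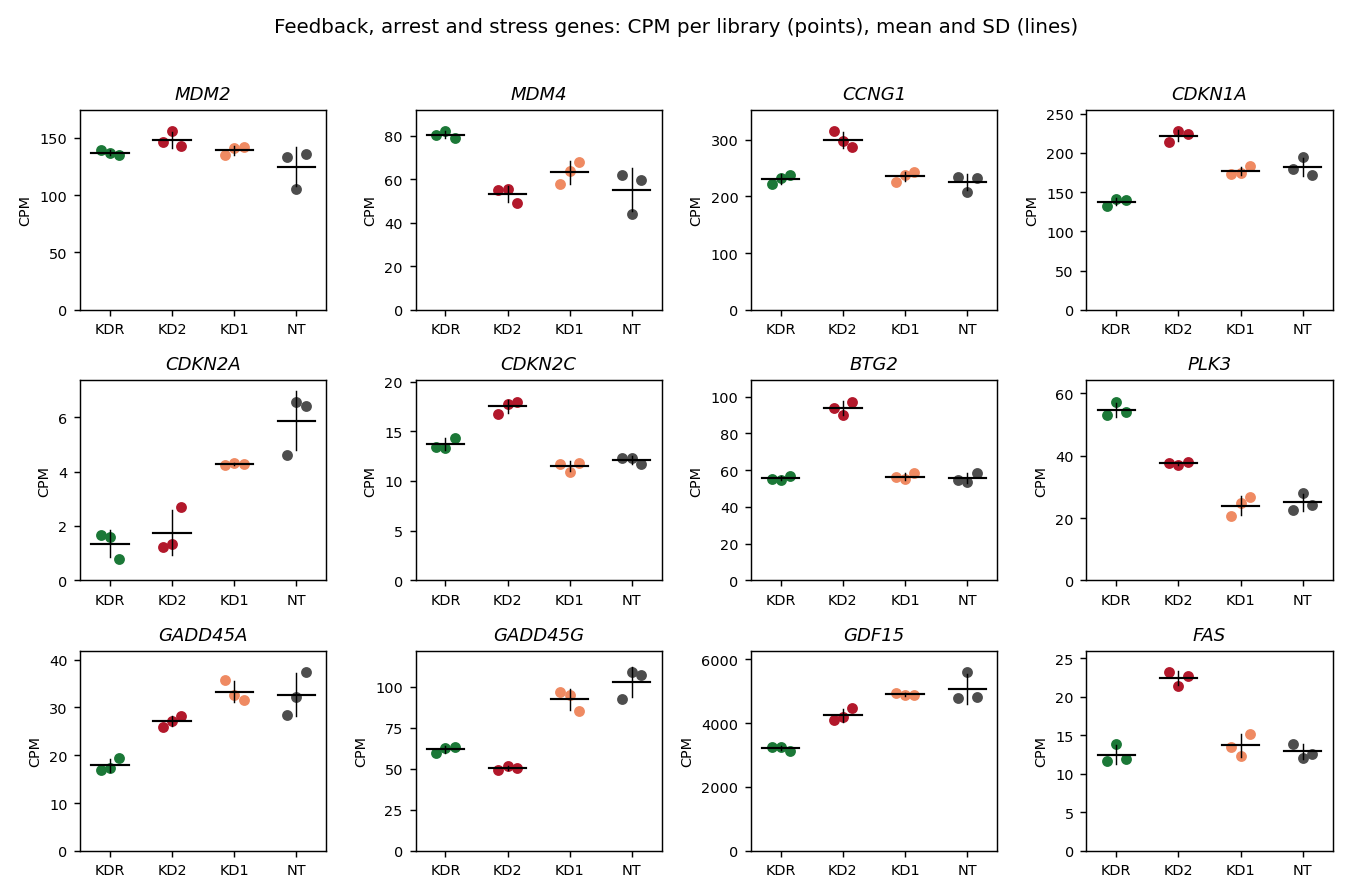
CPM in each library (points, 3 per group, in the order KDR, KD2, KD1, NT) with the group mean (horizontal line) and SD (vertical line) for 12 feedback, arrest, stress and death receptor genes, each panel on a linear axis from 0. BTG2 and FAS stand clear in KD2 alone, PLK3 steps up in KD2 and again in KDR, and GADD45A, GADD45G and GDF15 are lower in KDR and KD2 than in NT.

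Of the 11 genes of growth arrest and damage response, 5 rose and 4 fell in KD2 against NT (beside 17.8% and 18.2% of all genes). BTG2, an antiproliferative protein that recruits the mRNA deadenylase, averaged 55.5 ± 1.07 CPM in KDR, 93.8 ± 3.70 in KD2, 56.5 ± 1.78 in KD1 and 55.6 ± 2.61 in NT. KD2 lay above all other libraries, 1.69-fold over NT (log2 0.76 ± 0.07, adjusted p = 3.5e-09). KDR against NT gave a log2 fold change of -0.00 with an interval of -0.14 to 0.14 (adjusted p = 0.99). PLK3, a stress-responsive polo-like kinase, was at 53.1, 57.4 and 53.9 CPM in KDR, 37.6, 37.1 and 38.1 in KD2, 20.5, 24.8 and 26.6 in KD1 and 22.7, 28.1 and 24.3 in NT. KDR lay above KD2, and KD2 lay above KD1 and NT, which overlapped. PLK3 was the only one of the 47 genes called higher in both KD2 against NT (0.58 ± 0.10, adjusted p = 3.7e-05) and KDR against KD2 (0.54 ± 0.09, adjusted p = 7.9e-05), and in KDR it was 2.19-fold over NT (log2 1.13 ± 0.10, adjusted p = 4.7e-09).

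PLK2, a second polo-like kinase, was 0.27 higher in KD2 than in NT on the log2 scale (adjusted p = 0.0018) and -0.32 in KDR against KD2 (adjusted p = 4.6e-04), with group means of 82.6 CPM in KDR, 103 in KD2, 88.1 in KD1 and 85.3 in NT. AEN, a nuclease of apoptotic cells whose decamers are printed above, was higher in KD2 (83.2 ± 4.39 CPM) than in NT (72.6 ± 6.43) by 0.19 (adjusted p = 0.034). That call was lost without NT replicate 1, NT replicate 3, KD2 replicate 2 or KD2 replicate 3 (0.14 to 0.22, adjusted p 0.054 to 0.15), while KDR against KD2 gave -0.35 (adjusted p = 4.2e-04). KDR against NT gave -0.16 for AEN (adjusted p = 0.1), and -0.21 without NT replicate 1 (adjusted p = 0.039). ZMAT3, an RNA-binding p53 target, was higher in KD2 than in NT (0.30, adjusted p = 0.026), but not without NT replicate 2, KD2 replicate 1 or KD2 replicate 2 (0.20 to 0.28, adjusted p 0.081 to 0.12).

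The GADD45 genes encode small stress proteins that activate MAP kinase signalling and take part in DNA demethylation. All 3 were called lower in KD2 than in NT (beside 18.2% of all genes). Only the GADD45G call held whichever library was left out. GADD45G had 59.5, 63.0 and 63.2 CPM in KDR, 49.5, 51.8 and 50.6 in KD2, 96.8, 95.1 and 85.2 in KD1 and 92.8, 109 and 107 in NT. KD2 was lowest, KDR came next, and neither overlapped KD1 or NT. The log2 fold change was -1.02 ± 0.07 in KD2 against NT (adjusted p = 1.3e-10), 0.29 ± 0.07 in KDR against KD2 (adjusted p = 0.0038) and -0.74 ± 0.07 in KDR against NT (adjusted p = 5.5e-08). GADD45A moved in another order, with 17.9 ± 1.33 CPM in KDR, 27.2 ± 1.08 in KD2, 33.3 ± 2.14 in KD1 and 32.7 ± 4.54 in NT. It was lower in KDR than in KD2 (-0.60, adjusted p = 5.7e-05) and NT (-0.87, adjusted p = 5.8e-07). Its smaller fall in KD2 against NT (-0.27, adjusted p = 0.038) was lost without NT replicate 3 or any of the 3 KD2 libraries (-0.29 to -0.16, adjusted p 0.059 to 0.25). GADD45B fell by 0.20 in KD2 against NT (adjusted p = 0.017), though not without KD2 replicate 1 or KD2 replicate 2 (-0.20 to -0.16, adjusted p 0.051 to 0.1).

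PHLDA3, an inhibitor of AKT, averaged 66.6 ± 2.25 CPM in KDR, 77.8 ± 5.32 in KD2, 87.7 ± 7.25 in KD1 and 92.1 ± 8.03 in NT. It was lower in KDR than in NT (-0.47, adjusted p = 6.5e-05). The smaller differences of KD2 against NT (-0.24, adjusted p = 0.015) and KDR against KD2 (-0.22, adjusted p = 0.03) were lost without KD2 replicate 1 for the first (-0.19, adjusted p = 0.1) and without KD2 replicate 2, KD2 replicate 3, KDR replicate 2 or KDR replicate 3 for the second (-0.22 to -0.18, adjusted p 0.081 to 0.13). DDB2, a damage sensor of nucleotide excision repair with the closest match to the response element, averaged 49.1 CPM in KDR, 52.4 in KD2, 46.6 in KD1 and 49.0 in NT and was called in no comparison with all libraries. XPC-AS1, a non-coding gene that shares 34.6% of its exon bases with other genes, was at 4.35 CPM in KDR and 2.83 in KD2 (0.62, adjusted p = 0.017), and not called without KD2 replicate 2 or KDR replicate 1 (0.55 to 0.57, adjusted p 0.065 to 0.071). Reads on shared bases are left out by default, so its count rests on the other exon bases, and strand was not used.

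With all libraries, stress and metabolism genes were called higher in neither KD2 nor KDR against NT. Of the 7 tested, 2 fell in KD2 against NT (beside 18.2% of all genes) and 3 fell in KDR against NT (beside 14.5%). GDF15, a secreted stress cytokine, was the most abundant of the 48 genes per kilobase of exon in every group. It had 3264, 3237 and 3131 CPM in KDR, 4084, 4180.4 and 4467 in KD2, 4948, 4877 and 4861 in KD1 and 4768, 5594 and 4828 in NT. KDR lay below KD2, and KD2 lay below KD1 and NT. The log2 fold change was -0.25 ± 0.05 in KD2 against NT (adjusted p = 2.4e-04), -0.40 ± 0.05 in KDR against KD2 (adjusted p = 9.8e-07) and -0.66 ± 0.05 in KDR against NT (adjusted p = 7.1e-10). SESN1, a sestrin that restrains mTORC1, averaged 23.6 ± 2.11 CPM in KDR, 28.0 ± 2.23 in KD2, 32.8 ± 1.38 in KD1 and 33.1 ± 1.13 in NT. It was lower in KDR than in NT (-0.49, adjusted p = 2.2e-04). Its call in KD2 against NT (-0.24, adjusted p = 0.041) was lost in 8 of 12 settings that each left out 1 library, namely NT replicates 1 and 3, KD1 replicates 1, 2 and 3, KD2 replicates 2 and 3 and KDR replicate 1 (-0.26 to -0.17, adjusted p 0.053 to 0.21). For KDR against KD2 (-0.25, adjusted p = 0.035) the call was lost without KD2 replicate 1, KD2 replicate 2, KDR replicate 1 or KDR replicate 3 (-0.28 to -0.18, adjusted p 0.058 to 0.19).

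FDXR, the reductase that feeds electrons to mitochondrial cytochrome P450 and iron-sulphur assembly, averaged 44.2 ± 1.86 CPM in KDR, 59.4 ± 3.01 in KD2, 49.4 ± 1.22 in KD1 and 53.8 ± 7.13 in NT. It was lower in KDR than in KD2 (-0.42, adjusted p = 4.0e-04) and NT (-0.28, adjusted p = 0.015), the last not without KDR replicate 1 or KDR replicate 3 (-0.28 to -0.25, adjusted p 0.051 to 0.068). In KD2 against NT it stood at 0.14 (adjusted p = 0.21), and at 0.23 without NT replicate 2 (adjusted p = 0.013). TP53INP1, an autophagy and stress protein, the ribosomal protein paralogue RPS27L, the fructose bisphosphatase TIGAR and the oxidoreductase TP53I3 were called in no comparison with all libraries, at log2 fold changes between -0.24 and 0.23. Without NT replicate 2, TP53INP1 was lower in KD2 than in NT (-0.12, adjusted p = 0.033). RPS27L in KD2 against KD1 was at -0.21 (adjusted p = 0.054) and was called without NT replicate 1 or 3 (-0.21, adjusted p 0.036 to 0.044) or KD2 replicate 1 (-0.28, adjusted p = 0.025).

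All 3 death receptors rose in KD2 against NT (beside 17.8% of all genes), and with all libraries 2 of them were called lower in KDR than in KD2. FAS, the receptor of FAS ligand, was at 11.6, 13.9 and 11.9 CPM in KDR, 23.2, 21.4 and 22.7 in KD2, 13.5, 12.3 and 15.2 in KD1 and 13.9, 12.1 and 12.6 in NT. KD2 lay above all other libraries, and the other 3 groups overlapped. KD2 was 1.74-fold over NT (log2 0.80 ± 0.11, adjusted p = 4.4e-06), KDR against KD2 gave -0.85 ± 0.11 (adjusted p = 2.6e-06), and KDR against NT gave -0.05 with an interval of -0.28 to 0.19 (adjusted p = 0.81). TNFRSF10A, a receptor of the death ligand TRAIL, averaged 17.7 ± 1.18 CPM in KDR, 26.2 ± 1.63 in KD2, 16.0 ± 0.506 in KD1 and 18.8 ± 2.41 in NT. Its log2 fold change was 0.48 ± 0.10 in KD2 against NT (adjusted p = 6.6e-04) and -0.57 ± 0.10 in KDR against KD2 (adjusted p = 1.4e-04), with 16.7% of exon bases shared with antisense genes. TNFRSF10B, the other TRAIL receptor, averaged 86.1 ± 1.26 CPM in KDR, 94.9 ± 5.98 in KD2, 78.4 ± 1.83 in KD1 and 81.1 ± 5.05 in NT. It rose by 0.23 in KD2 against NT (adjusted p = 0.0091) but was not called without KD2 replicate 2 (0.19, adjusted p = 0.066). All KDR libraries lay below all KD2 libraries. KDR against KD2 gave -0.14 (adjusted p = 0.11), and -0.14 without NT replicate 2, where it was called (adjusted p = 0.024). CASP8, the caspase these receptors activate, averaged 23.8 CPM in KDR, 27.6 in KD2, 27.3 in KD1 and 27.2 in NT and was called in no comparison with all libraries. KDR against KD2 gave -0.21 (adjusted p = 0.055), and -0.22 without NT replicate 3 (adjusted p = 0.049).

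Among the 8 BCL2 effectors and BH3 genes, BBC3 rose and PMAIP1, BCL2L11 and BIK fell in KD2 against NT. Of all genes, 17.8% rose and 18.2% fell there. BIK, a BH3-only protein of the endoplasmic reticulum, was at 16.2, 19.0 and 17.0 CPM in KDR, 9.56, 10.5 and 9.64 in KD2, 22.1, 24.8 and 21.1 in KD1 and 22.7, 24.7 and 20.0 in NT. KD2 lay below all other libraries and KDR lay between KD2 and both KD1 and NT. BIK changed by -1.18 ± 0.11 in KD2 against NT (adjusted p = 1.0e-08), 0.81 ± 0.11 in KDR against KD2 (adjusted p = 4.2e-06) and -0.37 ± 0.11 in KDR against NT (adjusted p = 0.01, and 0.064 at -0.32 without KDR replicate 1). PMAIP1 (NOXA), which binds MCL1, averaged 137 ± 2.78 CPM in KDR, 105 ± 3.20 in KD2, 160.2 ± 4.75 in KD1 and 153 ± 20.9 in NT. It fell in KD2 against NT (-0.54 ± 0.07, adjusted p = 3.4e-06) and was higher in KDR than in KD2 (0.38 ± 0.07, adjusted p = 3.2e-04). KDR against NT gave -0.16 (adjusted p = 0.11), and -0.27 without NT replicate 2 (adjusted p = 3.5e-05).

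BBC3 (PUMA), which binds all the survival proteins, had 32.1, 26.4 and 25.7 CPM in KDR, 36.2, 35.4 and 40.7 in KD2, 30.1, 29.4 and 31.3 in KD1 and 30.0, 34.8 and 29.1 in NT. KD2 lay above all other libraries, with NT replicate 2 closest to it. KDR against KD2 gave -0.41 ± 0.10 (adjusted p = 0.0019). The rise in KD2 against NT (0.26 ± 0.10, adjusted p = 0.04) was lost without NT replicate 1, NT replicate 3, any of the 3 KD1 libraries, KD2 replicate 1 or KD2 replicate 3 (0.20 to 0.28, adjusted p 0.05 to 0.18). BCL2L11 (BIM) fell in KD2 (67.2 ± 3.08 CPM) against NT (82.1 ± 5.27) by 0.29 on the log2 scale (adjusted p = 0.002). In KDR (72.7 ± 4.33 CPM) against NT it stood at -0.17 (adjusted p = 0.063), and at -0.23 without NT replicate 2 (adjusted p = 0.003).

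BMF, a BH3-only protein tied to the cytoskeleton, was lower in KDR alone. It averaged 12.7 ± 1.52 CPM in KDR, 24.1 ± 2.87 in KD2, 22.0 ± 0.879 in KD1 and 21.4 ± 4.09 in NT, and KDR lay below every other library. The log2 fold change was -0.92 ± 0.13 in KDR against KD2 (adjusted p = 6.7e-06) and -0.75 ± 0.13 in KDR against NT (adjusted p = 1.1e-04). In KD2 against NT BMF stood at 0.17 (adjusted p = 0.33), and at 0.30 without NT replicate 2 (adjusted p = 0.037). BID, the BH3 protein that caspase-8 cleaves, averaged 27.4 ± 1.92 CPM in KDR, 32.8 ± 1.31 in KD2, 31.0 ± 0.548 in KD1 and 33.4 ± 4.88 in NT. Its calls in KDR against KD2 (-0.26, adjusted p = 0.04) and NT (-0.29, adjusted p = 0.026) did not hold when single libraries were left out. They were lost without KD1 replicates 2 or 3, KD2 replicates 1, 2 or 3 or KDR replicates 1 or 2 for KD2 (-0.28 to -0.22, adjusted p 0.05 to 0.15), and without NT replicate 2, KDR replicate 1 or KDR replicate 2 for NT (-0.27 to -0.17, adjusted p 0.094 to 0.13).

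The effectors BAX and BAK1, which form the pores in the outer mitochondrial membrane, were not called against NT. BAX was at 26.1, 27.1 and 26.6 CPM in KDR, 28.3, 26.4 and 30.8 in KD2, 20.8, 23.8 and 23.5 in KD1 and 21.7, 31.3 and 20.2 in NT. NT replicate 2 was the highest of the 12 libraries, and the other NT libraries lay below all KDR and KD2 libraries. With all libraries the log2 fold change was 0.12 in KDR (adjusted p = 0.51) and 0.22 in KD2 (adjusted p = 0.18) against NT, and without NT replicate 2 it was 0.33 in KDR (adjusted p = 0.0059) and 0.44 in KD2 (adjusted p = 2.6e-04). KD2 against KD1 compares neither group with NT replicate 2, but that library enters the shared estimate of the spread. There BAX was higher in KD2 by 0.33 (adjusted p = 0.042), and by 0.32 without NT replicate 2 (adjusted p = 0.0018). The call was lost when any KD1 or KDR library, KD2 replicate 1 or KD2 replicate 3 was left out (0.27 to 0.36, adjusted p 0.054 to 0.17). BAK1 averaged 13.8 ± 0.828 CPM in KDR, 14.0 ± 0.209 in KD2, 10.1 ± 0.327 in KD1 and 12.0 ± 0.392 in NT, and was higher in KD2 than in KD1 (0.47, adjusted p = 0.0013).

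**Figure D4:**
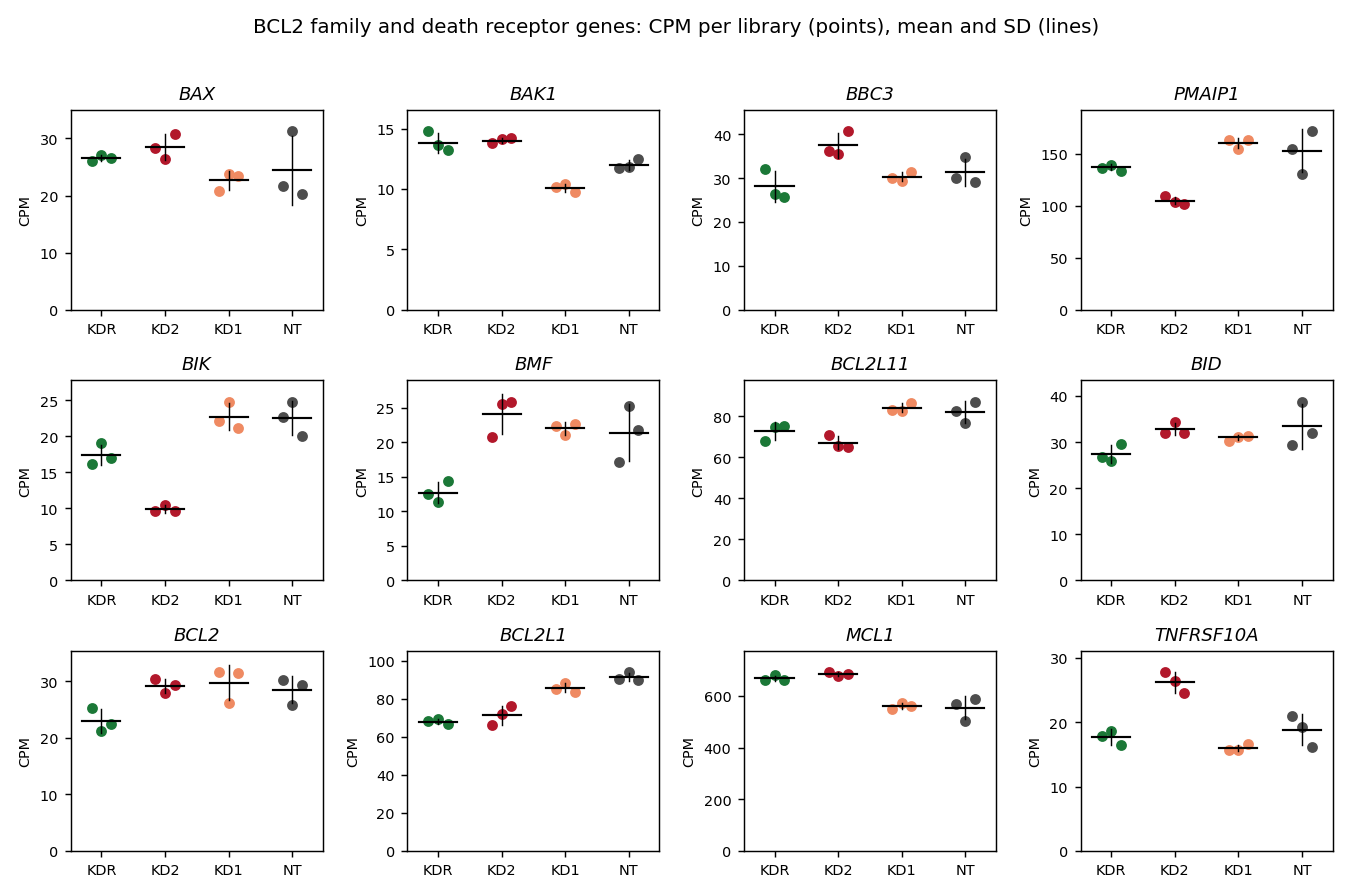
CPM in each library (points, 3 per group, in the order KDR, KD2, KD1, NT) with the group mean (horizontal line) and SD (vertical line) for 11 BCL2 family genes and TNFRSF10A, each panel on a linear axis from 0. BIK and PMAIP1 are lowest in KD2, BMF is lowest in KDR, BCL2L1 is lower and MCL1 higher in KDR and KD2 than in KD1 and NT, and NT replicate 2 is the highest BAX value at 31.3 CPM.

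Of the 3 survival genes, MCL1 was higher and BCL2L1 lower in both KDR and KD2 than in NT. Of all genes, 13% were higher and 14.5% lower in KDR against NT, and 17.8% higher and 18.2% lower in KD2 against NT. MCL1 was at 663, 679.6 and 662 CPM in KDR, 692, 675 and 686 in KD2, 548, 572 and 562 in KD1 and 569, 503 and 589 in NT. KDR and KD2 overlapped and lay above KD1 and NT, with 0.27 ± 0.05 in KDR (adjusted p = 3.6e-04) and 0.31 ± 0.05 in KD2 (adjusted p = 5.7e-05) against NT. BCL2L1 (BCL-xL) had 68.1, 69.2 and 66.9 CPM in KDR, 66.1, 72.1 and 76.0 in KD2, 85.2, 88.2 and 83.6 in KD1 and 90.4, 94.0 and 90.0 in NT. KDR and KD2 again overlapped, below KD1 and NT. The log2 fold change was -0.43 ± 0.06 in KDR (adjusted p = 2.3e-05) and -0.36 ± 0.06 in KD2 (adjusted p = 1.1e-04) against NT. The gene ABALON covers 41.3% of the BCL2L1 exon bases on the opposite strand. Reads on those bases are left out by default, so the BCL2L1 count rests on its other exon bases. For KDR against KD2 MCL1 gave -0.03 with an interval of -0.14 to 0.07, and BCL2L1 gave -0.07 with an interval of -0.20 to 0.07.

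BCL2 itself was at 25.2, 21.1 and 22.5 CPM in KDR, 30.4, 27.9 and 29.3 in KD2, 31.6, 26.1 and 31.4 in KD1 and 30.2, 25.8 and 29.4 in NT. KDR lay below all other libraries, and the other 3 groups overlapped. It was lower in KDR than in KD2 (-0.35 ± 0.10, adjusted p = 0.0077) and NT (-0.31 ± 0.10, adjusted p = 0.019), while KD2 against NT gave 0.04 (adjusted p = 0.8). These calls were lost without KDR replicate 2 for KD2 (-0.29, adjusted p = 0.054) and without NT replicate 1, NT replicate 3, KDR replicate 2 or KDR replicate 3 for NT (-0.30 to -0.26, adjusted p 0.05 to 0.11). Per kilobase of exon, MCL1 was the most abundant survival gene, with 107 CPM in KDR, 110 in KD2, 90.1 in KD1 and 89.0 in NT. BCL2L1 had 16.2 CPM per kilobase in KDR, 17.0 in KD2, 20.4 in KD1 and 21.8 in NT, and BCL2 had 1.82 in KDR, 2.32 in KD2, 2.36 in KD1 and 2.26 in NT. These lengths count every annotated exon of a gene, so genes with long rare isoforms are placed too low. They also include bases shared with other genes, where reads are left out, so BCL2L1 (41.3% shared) is placed too low as well.

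APAF1 and CASP9, which assemble into the apoptosome, and XIAP, which inhibits caspases, were called in no comparison with all libraries. Their means ran over 22.0 to 25.8 CPM for APAF1, 27.8 to 31.3 for CASP9 and 141 to 152 for XIAP. The widest of their log2 fold changes was -0.20, for APAF1 in KDR against KD2 (adjusted p = 0.17). Without NT replicate 2, XIAP was lower than in NT in KD2 (-0.13, adjusted p = 0.024) and in KDR (-0.15, adjusted p = 0.011).

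Read across the comparisons, the tested genes fell into several courses. CCNG1, CDKN1A, CDKN2C, BTG2, PLK2, AEN, FAS, TNFRSF10A and BBC3 were called higher in KD2 against NT and lower in KDR against KD2, and of these 9 only CDKN1A was also called in KDR against NT. GADD45G, PMAIP1 and BIK took the opposite course, and GADD45G and BIK remained lower in KDR than in NT. GADD45A, PHLDA3, SESN1 and GDF15 were called lower at both steps, and of these only GDF15 kept both calls whichever library was left out. MDM2, CDKN1B, ZMAT3, TNFRSF10B and MCL1 were called higher, and CDKN2A, GADD45B, BCL2L11 and BCL2L1 lower, in KD2 against NT alone of these 2 comparisons. CDKN2B, FDXR, BID, BMF and BCL2 were lower in KDR than in KD2 without a call in KD2 against NT, and MDM4 and XPC-AS1 were higher. These courses rest on calls with all libraries, and some were lost when a single library was left out. In KD2 against NT this held for AEN, BBC3, GADD45A, GADD45B, MDM2, PHLDA3, SESN1, TNFRSF10B and ZMAT3. In KDR against KD2 it held for BCL2, BID, CDKN2B, PHLDA3, SESN1 and XPC-AS1. Without NT replicate 2, MDM2, ZMAT3 and TNFRSF10B were also called lower and GADD45B higher in KDR against KD2. ZMAT3 was then not called in KD2 against NT, where FDXR and BMF were called higher and MDM4 lower. The 3 comparisons of KDR, KD2 and NT share libraries, so these courses are descriptions of the same values. In all, 36 genes were called in at least 1 comparison and 11 in none. The shares of all genes that took each course, or were called at least once, were not counted. These counts therefore only describe the set.

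Other genes of these pathways, from lists that exclude the 48, moved in both directions. Their counts in KD2 against NT stand beside 17.8% of all genes that rose and 18.2% that fell. Of 47 tested further p53 targets, 11 rose and 12 fell. TGFA, a growth factor, averaged 273 CPM in KDR, 215 in KD2, 408 in KD1 and 388 in NT (KD2 against NT -0.85, adjusted p = 4.2e-11). KITLG, the KIT ligand, averaged 2.33 CPM in KDR, 3.19 in KD2, 12.1 in KD1 and 11.3 in NT (-1.83, adjusted p = 1.0e-07). CYFIP2 fell by 0.75 (adjusted p = 1.0e-09) and SESN2 by 0.60 (adjusted p = 1.2e-06). Of 22 tested p53 regulators 9 rose and 4 fell, among them the kinase CHEK1 (1.57, adjusted p = 1.8e-09), the ubiquitin ligases SIAH1 (-1.23, adjusted p = 1.6e-08) and RCHY1 (-1.07, adjusted p = 6.0e-08), and RPL11 (0.51, adjusted p = 7.8e-08), a ribosomal protein that binds MDM2.

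Of 28 tested cyclins, their kinases, pocket proteins, E2F and related factors, 16 rose, 3 fell and 9 were not called in KD2 against NT. In KDR against KD2 none rose and 14 fell (beside 15.3% and 17.1% of all genes), and in KDR against NT 13 were higher and 3 lower (beside 13% and 14.5%). CDK1 averaged 25.7 CPM in KDR, 51.2 in KD2, 16.1 in KD1 and 14.3 in NT (KD2 against NT 1.84, adjusted p = 6.3e-13). MYC (1.02, adjusted p = 9.7e-12), CCNB1 (1.42, adjusted p = 3.9e-11) and E2F2 (2.14, adjusted p = 7.0e-11) rose as well. Among 12 other BCL2 family genes 2 rose and 3 fell. Those with the lowest adjusted p were BCL2L2 (-0.34, adjusted p = 7.8e-05), BNIP3 (-0.31, adjusted p = 3.4e-04), BCL2L13 (-0.26, adjusted p = 0.0034) and BNIP2 (0.25, adjusted p = 0.012). Of 24 other apoptosis genes 8 rose and 6 fell, led by BIRC5 (survivin), which is also a mitotic protein and averaged 18.2 ± 1.69 CPM in KDR, 46.3 ± 1.47 in KD2, 9.57 ± 1.59 in KD1 and 10.9 ± 0.809 in NT (KD2 against NT 2.08, adjusted p = 9.9e-13). TNFRSF21 (0.67, adjusted p = 3.7e-09) and BIRC2 (0.62, adjusted p = 7.1e-07) rose, and AIFM1 fell (-0.53, adjusted p = 2.3e-06). No gene of these 5 lists was called in KD1 against NT.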

How the data were processed

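The authors deposited 1 table of raw read counts per gene for each of 12 libraries. Per the file headers, featureCounts 1.6.4 counted reads over exons of Ensembl release 111 (GRCh38), with no option set for strand or pairs, so each end of a pair counted on its own; reads shared by overlapping genes are not counted by default. FastQC, cutadapt and HISAT2 are named, without versions, in the submitters' processing notes. The tables also hold exon length, deposited beside the counts.

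From these, edgeR 4.0.16 in R 4.3.3 kept 19373 genes (filterByExpr), scaled libraries by TMM and fitted 1 quasi-likelihood model on group over all 12 libraries. Called means a Benjamini-Hochberg adjusted p under 0.05 over all genes tested. CPM are TMM-scaled, with SD over 3 libraries. Alternatives were DESeq2 1.42.0, its size factors in edgeR, 2 other filters, a replicate block, fitting just the libraries compared, glmTreat against 1.2-fold, each library left out in turn and, added after seeing NT replicate 2, limma-voom 3.58.1 with library weights. The script was tested on simulated counts. The genes and lists were chosen with earlier results of these data known. Values per library are given for genes called at 2-fold or more and for MDM2, CDKN1A, BAX, BBC3, BCL2, BCL2L1 and MCL1; those of GDF15, FAS and CDKN2B were added after their values were seen. From each other list up to 4 genes were named by adjusted p in KD2 against NT. Libraries with the same replicate number are not pairs: of 18 same-numbered pairs 0 had a correlation of deviations above 0.1 (range -0.0234 to 0.0394 over all genes tested).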

Additional observations from a re-analysis of the deposited data

Results flagged for a closer look

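The libraries labelled KD2 and KD1 are both labelled as knock downs of DHODH, yet 23 of the 47 tested genes differed between them when the groups were compared directly (edgeR adjusted p under 0.05, 15 higher and 8 lower in KD2, beside 35.5% of all genes, 17.9% higher and 17.5% lower). Since both would be set against the same NT libraries, this is the test of the difference between their effects. BIK (-1.19, adjusted p = 9.2e-09), CDKN2A (-1.31, adjusted p = 8.9e-04) and GADD45G (-0.87, adjusted p = 2.3e-09) were lower in KD2 than in KD1, and BTG2 (0.73, adjusted p = 6.1e-09), TNFRSF10A (0.72, adjusted p = 7.4e-06) and FAS (0.71, adjusted p = 2.1e-05) were higher. DHODH RNA was not lower than in NT in either.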

How the results depend on the processing

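No call changed sign: of 92 calls of these genes in the 5 comparisons, 42 held under all 20 alternatives. Counts moved past 1.5 times only with glmTreat against 1.2-fold, which called 10 genes in KD2 against NT, 11 in KDR against KD2, 12 in KDR against NT and 10 in KD2 against KD1. Leaving out 1 library gave 19 to 32 calls in KD2 against NT, 20 to 31 in KDR against KD2, 14 to 21 in KDR against NT, 19 to 30 in KD2 against KD1 and 0 in KD1 against NT; in the first 4 the highest count came without NT replicate 2. With the replicate number as a block the counts were 25 in KD2 against NT, 24 in KDR against KD2, 19 in KDR against NT, 24 in KD2 against KD1 and 0 in KD1 against NT; the numbers are shared names and do not pair the libraries. DESeq2 called 26, 26, 20, 26 and 0 in the same order. Depth limits CDKN1C, CDKN2A, CDKN2B, TIGAR and XPC-AS1, which had at most 199 counts in any library, and the cause of the NT replicate 2 spread was not tested.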
